A study of Homo sapiens with 6 samples.

Results

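The response of UHRF2 and of the DNA methylation machinery to interleukin-6 (IL-6) was followed in INA-6, a line of human myeloma cells that cannot be kept without this cytokine. The group was defined by name and consists of 9 genes out of 17411 that carried a symbol on the array, namely UHRF1, UHRF2, DNMT1, DNMT3A, DNMT3B and MBD1 to MBD4. They were represented by 16 of the 27216 probes with a symbol. UHRF2 was singled out on its values in the very comparison described here, so these values are a description. Where UHRF2 appears in counts of calls, nothing is read from its call. The other 8 genes are set beside it.

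Total RNA was labeled with Cy3 and hybridized to a custom single-color oligonucleotide array with 243504 spots. Cells given IL-6 for 1 h at the end of a 13 h withdrawal (restimulated, 3 arrays) were compared with cells at the end of a 13 h withdrawal alone (withdrawn, 3 arrays). Both groups are the same cell line and went through a withdrawal given as 13 h, and cells kept in IL-6 throughout were not analysed here. Whether the 1 h of IL-6 fell within or after the 13 h is not stated. The groups may thus also differ in time without IL-6 or in time of harvest. The labels call the samples biological replicates but do not say that they were separate cultures, so p-values measure the spread between these samples, which may be technical. In RNA from whole cultures, a response of fewer cells and a smaller response per cell cannot be told apart. Arrays give no read depth, and 3 arrays per group limit the precision.

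Mammalian DNA methylation is copied after replication by DNMT1, the maintenance methyltransferase. UHRF1 recruits it to hemimethylated CpG sites through its SRA domain and ubiquitinates histone H3 through its RING domain. UHRF2 is the paralog of UHRF1 with the same domain order, prefers 5-hydroxymethylcytosine among its ligands and is known as an E3 ligase that binds cell cycle proteins. It does not replace UHRF1 in maintenance methylation. DNMT3A and DNMT3B set methyl groups at new sites, and the MBD proteins carry a methyl-CpG binding domain through which most of them read the mark.

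The 6 arrays correlated with r between 0.991 and 0.994 among restimulated, between 0.986 and 0.993 among withdrawn, and between 0.982 and 0.990 across the groups. The second principal component, with 27.1% of the variance, set withdrawn replicate 3 apart from the other arrays, and values without it are given below. SOCS3, a direct STAT3 target that serves as a check of the treatment, had log2 intensities of 11.54, 11.46 and 11.79 in restimulated cells, against 7.73, 7.54 and 7.91 in withdrawn cells, at its brighter probe. Of the markers of plasma cells and myeloma, 7 of 7 measured genes lay above the array median on all 6 arrays, and 1 of them, PRDM1, passed the test below. Of T and NK cell markers, 3 of 6 lay above the array median on all arrays and 1 of 6 on no array. These counts were 1 of 5 (CD14) and 4 of 5 for myeloid, and 2 of 4 and 2 of 4 for epithelial markers. For fibroblast markers they were 0 of 4 and 2 of 4, and for erythroid markers 3 of 3 and 0 of 3. None of the markers of these other cell types passed. The brightest of them, KRT8, had a mean log2 intensity of 14.64 over the 6 arrays. Whether such signals reflect expression in these cells was not tested, nor was their part in the results.

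UHRF2 was measured by 2 probes. At the brighter one (probe 177698), log2 intensities were 10.61, 10.61 and 10.34 in restimulated cells, against 9.38, 9.32 and 9.45 in withdrawn cells. All restimulated arrays lay above all withdrawn arrays, and the lowest restimulated value exceeded the highest withdrawn value by 0.89. The means were 10.52 ± 0.15 in restimulated and 9.38 ± 0.07 in withdrawn cells (SD, n = 3 each), a difference of 1.14 ± 0.09 (SE) on the log2 scale or 2.20-fold.

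The other UHRF2 probe (193738), designed against the same transcript, had log2 intensities of 9.99, 10.10 and 10.01 in restimulated cells, against 8.83, 8.83 and 9.07 in withdrawn cells. Here, too, the groups were separate, with a gap of 0.92 between the lowest restimulated and the highest withdrawn array. The difference was 1.12 ± 0.09 (SE) or 2.18-fold. The differences at both probes thus lay 0.015 apart, less than the standard error of either. The probes share the RNA of each array and are not replicates of the treatment.

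**Figure D1:**
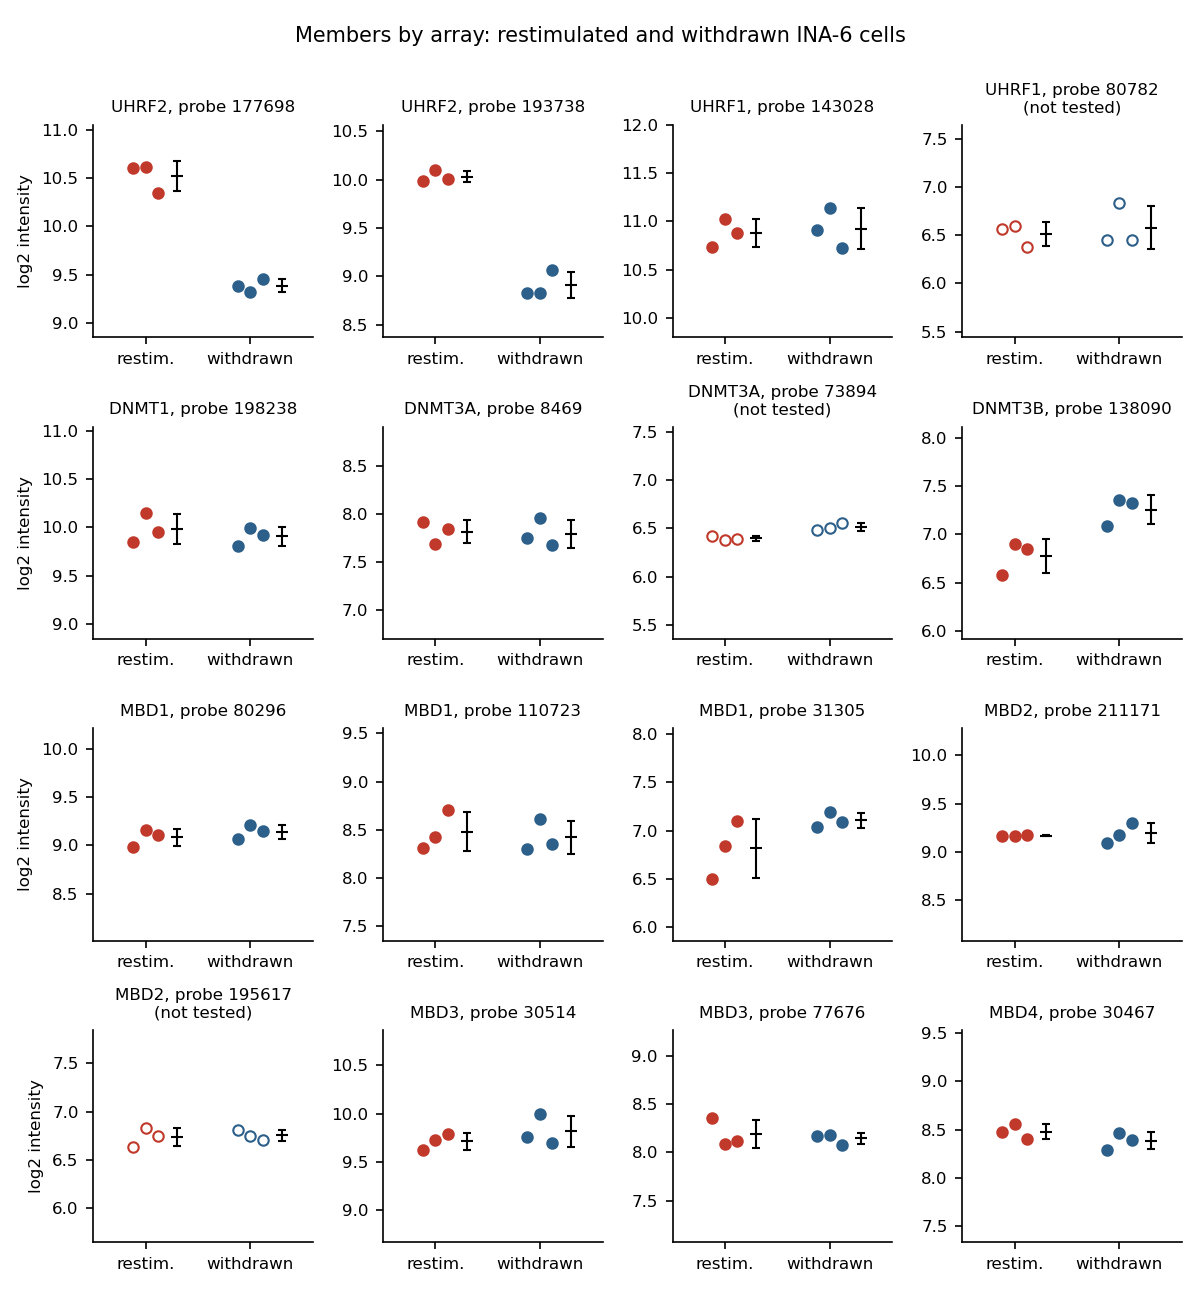
Log2 intensity (y axis) of all 16 probes of the 9 genes on each array, with restimulated cells (restim., red) left of withdrawn cells (blue); black marks give mean and SD of 3 arrays, each panel spans the same log2 range, and open points are probes below the detection rule. The groups stand about 1.1 apart at both UHRF2 probes, while those of the other genes overlap except for DNMT3B and the dim DNMT3A probe.

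Across the array, a probe was tested when its intensity exceeded the median of all spots of an array, between 6.84 and 6.85, on at least 3 of the 6 arrays. This median is used here as a stand-in for the background. All 9 genes had a tested probe, and 13 of the 16 probes passed the rule. A gene was represented by its brightest tested probe. In the limma fit with Benjamini-Hochberg adjustment, 22 of the 12703 genes tested had an adjusted p below 0.05 (0.173%). In restimulated cells 21 of these were higher and 1 was lower. Of the 9 genes 1 passed, and it was UHRF2. Since UHRF2 had been chosen on this contrast, nothing is read from this count. Its difference ranked 25 from the top among all genes tested.

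By probe, 2239 of 122102 tested probes passed (1.83%), 94 of them with a gene symbol. Of the 13 tested probes of the group 2 were among the probes that passed, both of UHRF2, and this count too is shaped by the choice of UHRF2. The share of 1.83% is mostly one of spots without a symbol, unlike the probes of the group. A share over tested probes with a symbol was not computed. The call of UHRF2 depended on the arrays used. It was kept when restimulated replicate 3 was left out and lost in each of the other 5 fits with 1 array less. Over all genes tested, between 6 and 11 passed in the fits with 1 array less, against 22 with all arrays. The UHRF2 difference stayed between 1.09 and 1.23 in these fits, and was 1.17 without withdrawn replicate 3. The call was also lost with the replicate number as a block, although the labels do not say that these numbers pair the samples.

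UHRF1, the paralog, was bright at 1 probe (143028). Its log2 intensities were 10.73, 11.02 and 10.88 in restimulated cells, against 10.91, 11.14 and 10.72 in withdrawn cells. The groups overlapped fully. The difference was -0.05 ± 0.13 (SE), with a 95% interval from -0.38 to 0.28. A second UHRF1 probe (80782) stayed below the median of every array and ranged from 6.37 to 6.83, so it carries no information on the response.

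The upstream regions of both paralogs are shown because UHRF2 stood apart and UHRF1 did not. They are the 250 bases before the annotated gene start, taken from a RefSeq promoter table (GRCh38.p14), chr9:6412949-6413198 for UHRF2 and chr19:4909251-4909500 for the first of 3 starts listed for UHRF1, both on the plus strand. Capitals mark matches to an E2F-type motif (TTTNNCGC) on either strand, and no match to a STAT-type motif (TTCNNNGAA) was found in them.
UHRF2: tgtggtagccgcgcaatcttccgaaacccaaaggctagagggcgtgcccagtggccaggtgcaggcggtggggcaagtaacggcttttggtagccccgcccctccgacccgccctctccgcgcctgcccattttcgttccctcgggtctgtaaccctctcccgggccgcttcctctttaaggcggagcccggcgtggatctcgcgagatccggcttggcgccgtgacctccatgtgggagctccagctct
UHRF1: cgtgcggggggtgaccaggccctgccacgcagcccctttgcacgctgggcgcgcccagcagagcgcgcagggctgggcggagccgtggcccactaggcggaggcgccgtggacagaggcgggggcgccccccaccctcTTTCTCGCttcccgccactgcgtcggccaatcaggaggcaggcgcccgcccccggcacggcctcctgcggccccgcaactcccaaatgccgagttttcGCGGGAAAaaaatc
The UHRF1 window held 2 matches to the E2F-type motif, beginning 112 and 14 bases before the start, and the UHRF2 window held none. Among 35116 windows of the same length in the table, 5.92% held the E2F-type and 6.57% the STAT-type motif. Of the 16 windows listed for the 9 genes, 2 held the E2F-type motif, both of UHRF1, and 0 held the STAT-type motif. A match is a run of letters and no evidence of binding, and its lack in this window says nothing about a factor bound elsewhere. The UHRF2 window had 23 CpG dinucleotides and a ratio of observed to expected CpG of 0.85, and the UHRF1 window had 28 and 0.84, against medians of 11 and 0.56 over all windows. The single DNMT3B window was poor in CpG, with 3 and a ratio of 0.13.

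DNMT1, the enzyme that UHRF1 recruits, had log2 intensities of 9.84, 10.15 and 9.96 in restimulated cells, against 9.80, 9.998 and 9.92 in withdrawn cells. The groups overlapped, and the difference of 0.08 ± 0.10 (SE) had a 95% interval from -0.17 to 0.33. On a linear scale this interval spans 0.887 to 1.25-fold.

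Of the de novo enzymes, DNMT3A was measured at 1 tested probe (8469), with 7.92, 7.68 and 7.85 in restimulated cells, against 7.75, 7.96 and 7.68 in withdrawn cells. The difference was 0.02 ± 0.10 (SE), with a 95% interval from -0.24 to 0.28. A further DNMT3A probe (73894), designed against another transcript, read 6.42, 6.38 and 6.39 in restimulated cells, against 6.48, 6.50 and 6.56 in withdrawn cells. Its groups did not overlap, but all 6 values were below the array median, where a level cannot be told from background.

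DNMT3B had the lowest difference of the group. Its log2 intensities were 6.58, 6.91 and 6.85 in restimulated cells, against 7.08, 7.36 and 7.33 in withdrawn cells. All restimulated arrays lay below all withdrawn arrays, by at least 0.18, and 2 of 3 restimulated and 3 of 3 withdrawn arrays exceeded the array median. The difference of -0.48 ± 0.12 (SE) had a 95% interval for this probe alone from -0.78 to -0.17. It did not pass in the fit over all genes (adjusted p = 0.444). The restimulated mean of 6.78 lay below the array median. Only 1 probe measured DNMT3B, and its values were close to the array median. Of the 9 genes, 2 (UHRF2 and DNMT3B) had groups that did not overlap, as did 12.2% of all genes tested.

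Among the methyl-CpG binding proteins no gene passed. MBD1, which represses methylated promoters, was measured at 3 tested probes. The brightest (80296) had 8.99, 9.16 and 9.11 in restimulated cells, against 9.07, 9.21 and 9.15 in withdrawn cells, a difference of -0.06 ± 0.07 (SE). The other MBD1 probes gave 0.06 ± 0.14 (probe 110723) and -0.29 ± 0.16 (probe 31305), and probe 31305 was near the median, with 1 of 3 restimulated arrays above it and 3 of 3 withdrawn arrays. The 3 probes thus differed in sign, each by less than 2 standard errors from 0.

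MBD2 and MBD3 are alternative subunits of the NuRD complex, in which MBD2 binds methylated CpG and mammalian MBD3 has largely lost this ability. MBD2 had 9.16, 9.17 and 9.18 in restimulated cells, against 9.10, 9.18 and 9.30 in withdrawn cells, a difference of -0.02 ± 0.07 (SE) with a 95% interval from -0.20 to 0.15. The interval was one of the narrowest of the group. Its dim probe (195617) lay between 6.63 and 6.83, below the median on all arrays. MBD3 had 9.62, 9.73 and 9.79 in restimulated cells, against 9.76, 10.001 and 9.69 in withdrawn cells, a difference of -0.10 ± 0.10 (SE), and 0.04 ± 0.09 at its other probe (77676). The groups of both MBD3 probes overlapped.

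MBD4 joins a methyl-CpG binding domain to a glycosylase that removes the thymine left by deamination of methylcytosine. It had 8.48, 8.56 and 8.40 in restimulated cells, against 8.29, 8.47 and 8.39 in withdrawn cells. The groups overlapped, and the difference of 0.09 ± 0.07 (SE) was the highest among the 8 genes beside UHRF2. The median difference over these 8 genes was -0.04, against 0.01 over all genes tested. For 7 of them, all but DNMT3B, the 95% intervals lay between -0.38 and 0.33. None of the 8 passed the test, which does not show that they were unchanged.

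**Figure D2:**
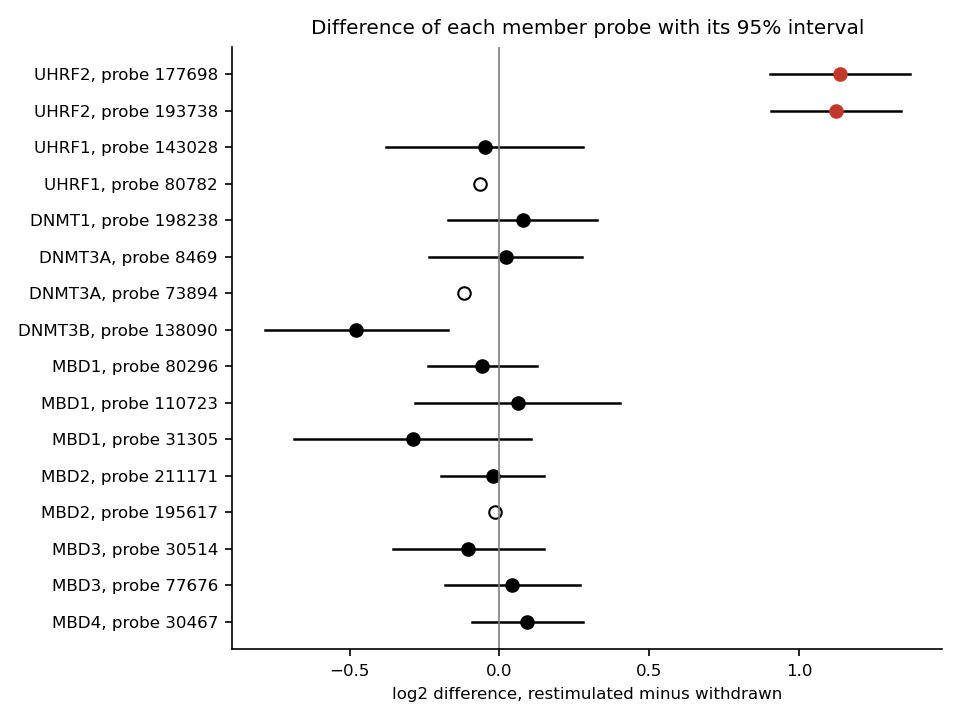
Log2 difference of restimulated minus withdrawn cells (x axis) for each of the 16 probes (y axis), with the 95% interval of the limma fit as a line and untested probes as open points without one. Both UHRF2 probes (red) lie near 1.1, DNMT3B lies at -0.48, and the other tested probes lie between -0.29 and 0.09.

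The wider pathway was described with 7 lists written from general knowledge, 126 genes in all, of which 122 were on the array and 114 were tested. The lists were chosen with earlier results of these data known, so their counts are a description. None of the 114 passed (0 higher and 0 lower), and 6 of them (5.26%) had an unadjusted p under 0.05, against 1027 of all 12703 genes tested (8.08%). The median difference of the lists lay between 0.00 and 0.07, against 0.01 over all genes tested. Groups did not overlap for 7 of the 114 genes (6.14%), against the 12.2% of all genes given above.

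Of the partners of maintenance methylation (19 tested, median 0.03), the kinase gene CDK2 differed by 0.33 ± 0.16, the tumor suppressor RB1 by 0.12 ± 0.10 and HELLS, a remodeler needed for full methylation, by 0.11 ± 0.10 (SE). These had the smallest p of the list. Of cofactors of de novo methylation and related methyltransferases (12 tested, median 0.03), NSD1, an H3K36 methyltransferase, differed by -0.18 ± 0.08. The Polycomb methyltransferase EZH2 differed by 0.16 ± 0.10 and KDM2B, which binds unmethylated CpG islands, by 0.15 ± 0.11. For none of these 6 genes were the groups separate.

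In the list of oxidation and removal of methylcytosine (19 tested, median 0.04), the smallest p belonged to OGT, TET2 and XRCC1. OGT, the O-GlcNAc transferase that binds TET proteins, had 10.61, 10.63 and 10.60 in restimulated cells, against 10.26, 10.53 and 10.37 in withdrawn cells. TET2, a dioxygenase that makes 5-hydroxymethylcytosine, had 7.26, 7.38 and 7.34 in restimulated cells, against 7.17, 7.15 and 7.18 in withdrawn cells. Both were separate between the groups, with differences of 0.23 ± 0.08 and 0.16 ± 0.06 (SE), and for both the adjusted p was 0.571. The repair scaffold XRCC1 differed by 0.37 ± 0.14, with overlapping groups. The list held 1 more gene with separate groups, the glycosylase gene NEIL1, with a difference of -0.20 ± 0.09 (SE, adjusted p = 0.638). It is named after its values were seen.

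A further list was named for other readers of methyl-CpG (7 tested, median 0.03). Whether each of its genes binds the mark was not checked, and this holds for MBD6 too. MBD6 had 10.69, 10.80 and 10.86 in restimulated cells, against 10.99, 11.09 and 11.03 in withdrawn cells. Its groups were separate, but the difference of -0.25 ± 0.07 (SE) did not pass (adjusted p = 0.467). The zinc finger readers ZBTB4 and ZBTB33 differed by 0.20 ± 0.08 and 0.12 ± 0.09. In the NuRD and Sin3 corepressors (18 tested, median 0.07), the smallest p belonged to ATF7IP, a partner of MBD1 (0.26 ± 0.11), the scaffold SIN3A (0.25 ± 0.13) and the remodeler CHD4 (0.18 ± 0.10).

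Supply of the methyl donor S-adenosylmethionine (14 tested, median 0.00) showed the lowest median of the lists. The methionine synthase reductase MTRR differed by -0.24 ± 0.13, the betaine methyltransferase BHMT by 0.15 ± 0.08 and MAT2B, a regulator of S-adenosylmethionine synthesis, by 0.10 ± 0.08 (SE). BHMT had separate groups (adjusted p = 0.73), but its withdrawn values of 6.72, 6.89 and 6.99 lay around the array median. Among genes of the G1/S transition and DNA replication (27 tested, median 0.03), CCNE2, which encodes cyclin E2, had 9.46, 9.43 and 9.05 in restimulated cells, against 8.50, 8.51 and 8.70 in withdrawn cells. Its groups were separate and its difference of 0.74 ± 0.13 (SE) was the highest over all lists, with an adjusted p of 0.226. Thymidylate synthase (TYMS) also had separate groups, with a difference of 0.22 ± 0.05 (adjusted p = 0.422). The transcription factor gene E2F1 differed by 0.16 ± 0.10, with overlapping groups.

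**Figure D3:**
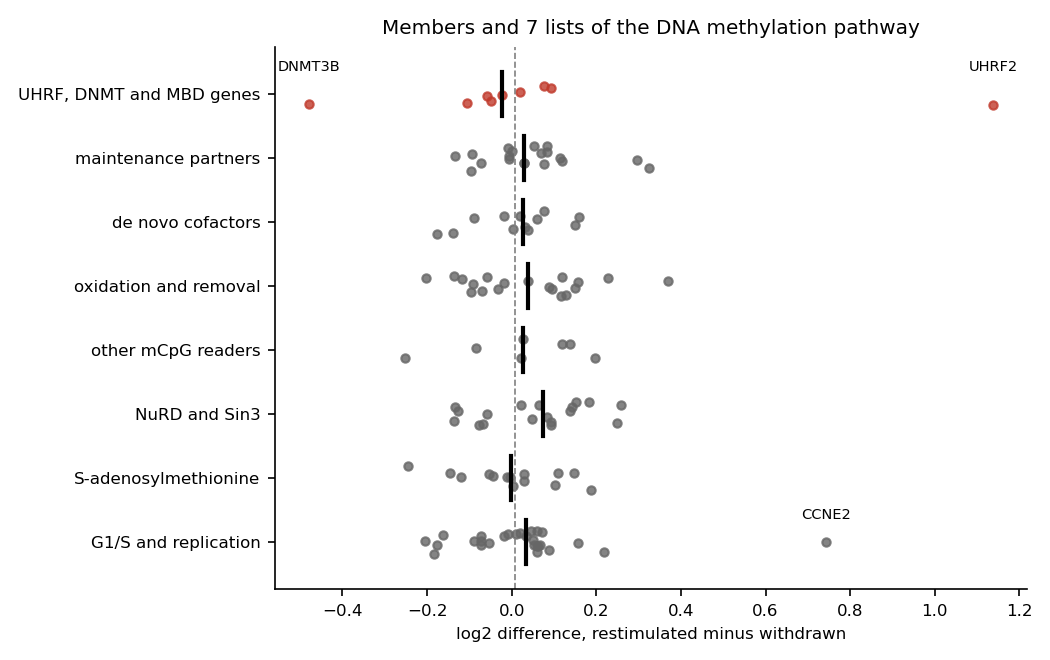
Log2 difference of restimulated minus withdrawn cells (x axis) for the 9 genes (red) and for the tested genes of 7 pathway lists (grey), 1 point per gene, with black bars for medians and a dashed line for the median of all genes tested. List medians lie between 0.00 and 0.07, and UHRF2 (1.14), CCNE2 (0.74) and DNMT3B (-0.48) lie farthest out.

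The pattern of UHRF2 over the 6 arrays was matched against all other tested genes by the mean absolute difference of log2 values, each centered on its gene mean. The 5 nearest genes were PIM3, MAP3K8, ABCA1, CYTH4 and SOX2, with mean absolute differences between 0.085 and 0.104. PIM3 encodes a kinase of a family induced by STAT signaling and read 9.02, 9.28 and 8.96 in restimulated cells, against 8.03, 8.09 and 8.18 in withdrawn cells. Its difference was 0.98 ± 0.10 (SE). MAP3K8, a kinase upstream of ERK, had 8.13, 8.10 and 7.92 in restimulated cells, against 6.76, 6.62 and 6.80 in withdrawn cells. All withdrawn values of MAP3K8 were below the array median, so only a bound is given, of at least 2.3-fold higher in restimulated cells.

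The cholesterol transporter gene ABCA1 differed by 1.07 ± 0.06 (SE), CYTH4, which encodes a guanine nucleotide exchange factor, by 0.96 ± 0.10, and the transcription factor gene SOX2 by 1.04 ± 0.09. All of these genes had separate groups, as a likeness to UHRF2 requires. The choice by likeness fixed the sign of these differences, which are therefore given without a test.

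**Figure D4:**
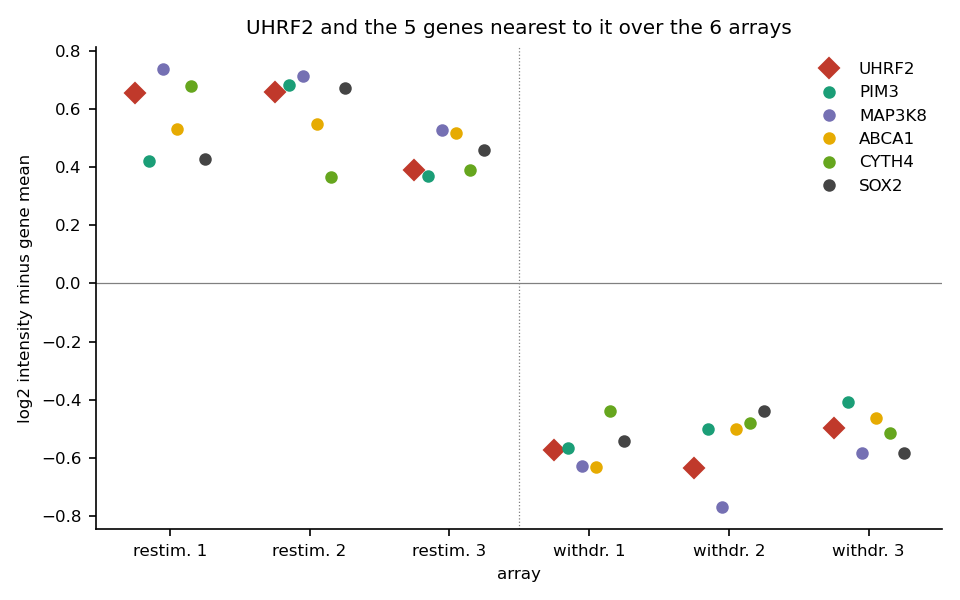
Log2 intensity minus the gene mean (y axis) on each of the 6 arrays (x axis, restimulated left of withdrawn, replicates in no order) for UHRF2 (red diamonds) and the 5 nearest genes (circles). All 6 genes lie above their mean in restimulated and below it in withdrawn cells.

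The nearest protein-coding neighbors of UHRF2 on its chromosome, 3 on each side, were looked at after its values had been seen. RANBP6, GLDC, KDM4C and DMAC1 were tested, and differed by 0.20 ± 0.08, 0.28 ± 0.21, 0.14 ± 0.10 and -0.18 ± 0.11 (SE). None passed, with adjusted p between 0.61 and 0.813. IL33 and TPD52L3 stayed below the median of every array.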

How the data were processed

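The authors hybridized Cy3-labeled RNA to single-color arrays, normalized the arrays by the quantile method and deposited log2 intensities, 1 value per spot. R 2.9.0 and limma appear in the submitters' processing notes. Background subtraction: not given in the sources used here. No further scaling was applied. Normalization by quantiles takes out shifts of the whole distribution, and 1715 spots at the ceiling of 16 on all arrays understate differences. These spots have no spread and were kept in the fit, so they also entered the variance estimates behind SE, intervals and calls. Without them 46 genes passed, against 22 in the main fit. Scan and slide were not used here.

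Row numbers of the values are not the probe numbers of the annotation. Rows were matched through the grid of 912 by 267 spots, which gave a correlation of 0.431 between levels of probes of the same gene (7157 genes), against 0.019 under equal numbers. All gene names rest on this inferred match. Symbols were updated through a RefSeq table (GRCh38.p14), by accession for 23835, by symbol for 2495 and by older symbol for 854 probes, while 32 kept theirs.

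The comparison used R 4.3.3 and limma 3.58.1, fitted over all tested probes without a replicate block (two-sided, Benjamini-Hochberg over genes or probes). SE and 95% intervals come from this fit. Members and lists were chosen with earlier results of these data known. Named were the 9 genes, SOCS3, the genes of each list past the threshold or with the 3 smallest p, and the 5 genes most like UHRF2. The script was tested on simulated data. Alternatives were a replicate block, other filters, priors, scalings and probe rules, and each array left out.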

Additional observations from a re-analysis of the deposited data

How the results depend on the processing

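UHRF2 was chosen on these 6 arrays, so the fits below show how its values depend on the processing and are no support for them. Its difference lay between 1.09 and 1.23 over 16 alternatives. UHRF2 passed the threshold in 9 of the 10 alternatives that used all arrays, the exception being the replicate block, and in 1 of 6 fits without 1 array, so that the number of the 9 genes past the threshold lay between 0 and 1 without 1 array. Differences of the other 8 genes moved by less than their spread in all 119 fits and never passed. UHRF1, DNMT1, DNMT3A and MBD2, whose differences were near 0, changed sign in 1 to 3 fits each.

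The number of genes past the threshold was 22 and depended on the fit. It was 34 without the filter, 103 when an interquartile range above 0.5 was required (324 genes tested), 51 with an intensity trend and robust prior, 46 without spots at the ceiling, 40 with arrays centered on the median and 35 with the mean over probes. It lay between 6 and 11 without 1 array. A prior from gene probes alone, chosen after seeing the data, gave 31. The number of probes, 2239, became 3590 with the interquartile range, 3860 with the trend and 3580 without ceiling spots, and lay between 320 and 1042 without 1 array. Of the pathway lists 1 gene, CCNE2, passed with the interquartile range and with the trend, against 0 otherwise.

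Replicate numbers in the labels do not say that they pair the samples. Deviations from the group means of same-numbered arrays correlated at -0.01, -0.07 and -0.26, and no array correlated best with its own number, so the numbers were not taken as a pairing. With the replicate number as a block, 1 gene, 0 probes, 0 of the 9 genes and 0 list genes passed, and the UHRF2 difference was 1.14. Signal near the array median limits what DNMT3B, 1 MBD1 probe and the 3 untested probes can show.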
